A study of Mus musculus with 8 samples.

Results

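The genes described here are 8 members of the BCL2 family that the study did not plot: the 3 A1 genes Bcl2a1a, Bcl2a1b and Bcl2a1d, the BH3-only genes Bid, Bad and Bik, and the effector genes Bak1 and Bok. They were chosen by name, and all 8 were found among the 30387 genes of the deposited table. RNA came from white adipocytes that had been separated from the epididymal fat pads of male Ad-Yap/Taz-KO mice (KO), which carry Adipoq-Cre with Yap fl/fl and Taz fl/fl alleles, or of their wild-type littermates (WT). Both genotypes received standard diet (SD, labelled normal chow) or high-fat diet (HFD) for 4 weeks, from an age of 5 weeks according to the series description. The study's methods give a slightly later starting age. Each of the 4 groups has 2 libraries, which the study describes as separate mice. Adipoq-Cre acts in every cell that uses the adiponectin promoter, so deletion was not restricted to epididymal fat.

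The BCL2 family governs the mitochondrial route to apoptosis. Anti-apoptotic members such as A1 hold the effectors BAK and BAX in check at the outer mitochondrial membrane, BH3-only proteins release this hold, and free effectors permeabilise the membrane so that cytochrome c leaves the mitochondria. A1 is best known from leukocytes, where NF-kappaB induces it. BID is cut by caspase-8 and carries the signal of death receptors to mitochondria. BAD is kept inactive by phosphorylation downstream of insulin and growth factor receptors.

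The values are normalized counts, that is, reads counted on a gene divided by a size factor of the library and rounded. The libraries held 14.0 to 22.3 M reads on genes, and 1 read was worth 0.795 to 1.135 normalized counts. Wwtr1, which encodes TAZ, was lower in KO than in WT libraries on HFD (log2 fold change -1.56, limma adjusted p = 3.11e-05) and on SD (-1.24, limma adjusted p = 0.000969). Yap1 was called on SD (log2 fold change -0.71, limma adjusted p = 0.0238) but not on HFD (-0.42, limma adjusted p = 0.0591). These counts cover whole genes and do not isolate the floxed exons. The WT HFD libraries lay closer together than those of the other groups in abundant genes: at 1000 to 5000 normalized counts their squared difference was 5.86 times the Poisson expectation, against 25.8 to 83.8 times elsewhere. At 5 to 20 counts they were no closer, with 4.72 times against 4.62 to 6.23. They may be technical repeats, so each of their values is given, and where averaging the pair to 1 sample changed a member's call, or a list's count between genotypes on HFD, both are given. All 12 adipocyte markers, among them Adipoq and Plin1, were above 0 in every group, with a summed level of 114471 to 494589 normalized counts.

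The A1 genes lie close together on chromosome 9 (GRCm38) and are near-identical copies, which bears on every count of them. Bcl2a1a (ENSMUSG00000102037) spans chr9:88956900-88962419 on the plus strand, Bcl2a1b (ENSMUSG00000089929) chr9:89199209-89207827 on the plus strand and Bcl2a1d (ENSMUSG00000099974) chr9:88723285-88731914 on the minus strand. Each codes over 516 bases, of which 12 differ between the copies, and the longest run identical in all 3 is 217 bases. The first 75 coding bases, the length of a full read, hold 6 of the differing positions and are shown because reads from here can tell the copies apart. Capitals mark the differing positions, the sequences come from the GENCODE vM21 transcripts, and they lie at chr9:88957051-88957125 (plus), chr9:89199360-89199434 (plus) and chr9:88731645-88731719 (minus).
Bcl2a1a: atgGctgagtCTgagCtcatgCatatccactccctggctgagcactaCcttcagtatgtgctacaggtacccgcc
Bcl2a1b: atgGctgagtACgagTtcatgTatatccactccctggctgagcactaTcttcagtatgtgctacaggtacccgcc
Bcl2a1d: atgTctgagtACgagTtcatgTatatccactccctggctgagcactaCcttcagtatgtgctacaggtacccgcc
Bcl2a1b and Bcl2a1d differ from each other at 6 coding bases, Bcl2a1a and Bcl2a1d at 7, and Bcl2a1a and Bcl2a1b at 11. Of all 75-base stretches of the annotated transcripts, 55.2% in Bcl2a1a, 68.4% in Bcl2a1b and 67.6% in Bcl2a1d also occur in another gene. The authors left out reads that aligned to several places, so the A1 values rest on the remaining stretches and the assignment of a read to 1 copy is uncertain. Bcl2a1b also shares 401 of its exon bases (49.1%) with Gm29094 on the same strand, a gene not analysed here.

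A1 transcripts were scarce in WT libraries and higher in KO libraries. On HFD 3 of the 3 A1 genes were called higher and on SD 2 of 3, where 17.1% and 3.21% of all 18800 genes tested were called higher. With all libraries scaled to the same total, the 17.1% became 24.6%, and the numbers of A1 genes called were still 3 and 2. With quantile normalization Bcl2a1a lost its HFD call, leaving 2 A1 genes, and 13.5% of all genes were called higher. Bcl2a1a also lost its HFD call with the WT HFD pair averaged. On HFD, the WT libraries held 14 and 10 normalized counts of Bcl2a1d and the KO libraries 174 and 123. On SD, the WT libraries held 7 and 10 and the KO libraries 76 and 58. Both KO libraries were thus far above both WT libraries on either diet. The rise was called on HFD (log2 fold change 3.52 ± 0.53 (SE), limma adjusted p = 0.000318) and on SD (2.85 ± 0.53 (SE), limma adjusted p = 0.00707). In reads, Bcl2a1d was 12.2 times as high on HFD (95% interval 8.09 to 19.4) and 7.87 times as high on SD (4.67 to 14.2). These are exact binomial intervals on reads summed over the libraries of a group and cover counting error only. The HFD call held in every fit. The SD call was lost in a fit of the SD groups alone (limma adjusted p = 0.0608) and without the first WT SD library (limma adjusted p = 0.0564).

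Bcl2a1b was listed at 0 in both WT HFD libraries and at 77 and 33 normalized counts in the KO HFD libraries. Against a floor of 3 counts per WT library the mean of the KO libraries was at least 18.3-fold higher. This bound covers the WT side only and not the spread between the KO libraries. The rise was called (limma adjusted p = 0.00071) and the call held in every alternative that kept the gene. On SD, the WT libraries held 1 and 3 normalized counts of Bcl2a1b and the KO libraries 20 and 23, without overlap. This difference was 10.1-fold in reads (95% interval 3.66 to 38.7) and was not called (log2 fold change 2.99 ± 0.96 (SE), limma adjusted p = 0.116).

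Of Bcl2a1a, the WT HFD libraries held 5 and 3 normalized counts and the KO HFD libraries 26 and 41. The values on SD were 1 and 7 for WT and 38 and 61 for KO. Again no KO library overlapped with WT on the same diet. The rise was called on HFD (log2 fold change 2.78 ± 0.86 (SE), limma adjusted p = 0.0242) and on SD (3.62 ± 0.86 (SE), limma adjusted p = 0.0291). In reads it was 8.61-fold on HFD (95% interval 4.17 to 20.6) and 13.2-fold on SD (6.16 to 33.7). On HFD the call was lost without any of the 4 libraries compared (limma adjusted p from 0.0555 to 0.161), with the WT HFD pair averaged (limma adjusted p = 0.0881), with no filter on low values (0.068) and with quantile normalization (0.136). On SD it was lost without the first WT library (limma adjusted p = 0.193) or either KO library (0.0705 and 0.155) and with a pseudocount of 0.1 (0.0577). It was also lost with no filter (limma adjusted p = 0.12), in a fit of the SD groups alone (0.107) and without the abundance trend (0.0903).

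**Figure D1:**
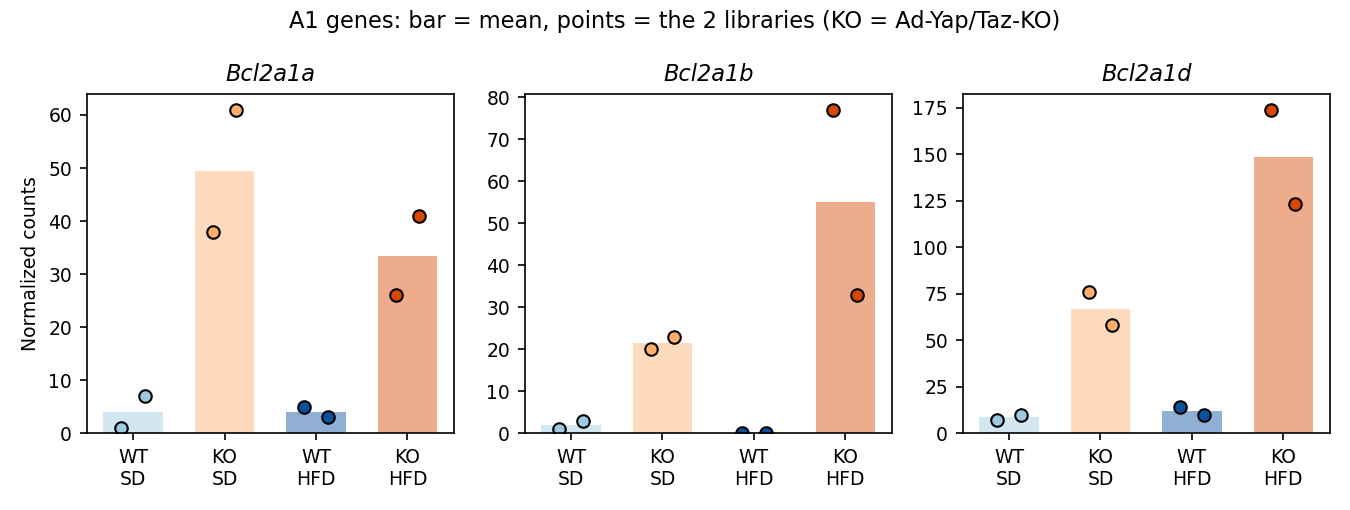
Normalized counts (vertical axis, linear from 0, a separate scale per gene) of Bcl2a1a, Bcl2a1b and Bcl2a1d in the 4 groups, with bars for group means and points for libraries. On each diet both KO libraries lie above both WT libraries for all 3 genes, and Bcl2a1d reaches the highest value, 174. The genes are near-identical copies, so these are not independent observations, and the share of all genes separated in this way was not counted.

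Summing the copies avoids part of the uncertainty over which copy a read came from. The summed A1 level was 9 and 20 normalized counts in WT SD, 134 and 142 in KO SD, 19 and 13 in WT HFD and 277 and 197 in KO HFD. In reads the sum was 14.7 times as high in KO as in WT mice on HFD (95% interval 10.3 to 21.7) and 9.54 times on SD (6.41 to 14.7). No A1 gene was called between the diets in either genotype. In KO mice the HFD values of Bcl2a1d exceeded the SD values, but the difference was not called (log2 fold change 1.13, 95% interval -0.02 to 2.28). The HFD values of Bcl2a1b did so as well (1.20, 95% interval -0.88 to 3.28). Bcl2a1a had the lower mean on HFD, with overlap (-0.55, 95% interval -2.40 to 1.31). The interaction of genotype and diet was called for no A1 gene. For Bcl2a1b, at 0 in WT HFD, its fitted value depends on the pseudocount (2.70 on the log2 scale with 1, 5.44 with 0.1 and 1.32 with 8) and the limma adjusted p was 0.182. The interaction was 0.67 for Bcl2a1d (95% interval -0.95 to 2.30, limma adjusted p = 0.562) and -0.84 for Bcl2a1a (-3.46 to 1.78, limma adjusted p = 0.662). Bcl2a1c, a related gene that shares few stretches with the others (3.78%), stood at 8 and 3 normalized counts in the WT HFD libraries and at 16 and 18 in the KO HFD libraries and was not called (limma adjusted p = 0.314).

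Between genotypes, macrophage and pan-leukocyte markers moved with the A1 genes. Of 14 macrophage markers, 13 were higher in KO than in WT libraries on HFD and 12 on SD, and none was at 0 in any group. Their summed level was 3826 to 3948 normalized counts in WT HFD, 40467 to 44667 in KO HFD, 6724 to 6835 in WT SD and 23505 to 40091 in KO SD. All 4 pan-leukocyte markers were higher on both diets. Their sum was 276 to 450 in WT HFD, 6955 to 7743 in KO HFD, 813 to 970 in WT SD and 3284 to 5262 in KO SD. Ptprc, which encodes the leukocyte antigen CD45, rose from 289 and 169 normalized counts in the WT HFD libraries to 3224 and 3292 in the KO HFD libraries. Between the diets in WT mice, 12 of 14 macrophage and 4 of 4 pan-leukocyte markers were called lower on HFD, or 1 of each list with the WT HFD pair averaged, while no A1 gene was called. The interaction of genotype and diet was positive and called for 13 of 14 macrophage and 4 of 4 pan-leukocyte markers, or 8 and 3 with the pair averaged, and for no A1 gene. The part of these cells in the A1 result was not tested. In such bulk samples, fewer cells of a type and less RNA per cell cannot be told apart.

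Per 1000 macrophage marker counts, the summed A1 level was 4.97 and 3.29 in WT HFD and 6.20 and 4.87 in KO HFD libraries, ranges that overlap. On SD it was 1.32 and 2.97 in WT and 3.34 and 6.04 in KO libraries, ranges that do not. The 7 mast cell markers summed to 14 to 28 normalized counts in WT HFD, 388 to 466 in KO HFD, 89 to 111 in WT SD and 106 to 164 in KO SD libraries, with Cpa3, Mcpt4, Tpsb2, Fcer1a, Ms4a2 and Cma1 at 0 in both WT HFD libraries. No count of calls is given for this list, since 3 of its 5 tested markers passed the filter on low values only through the KO HFD libraries. On HFD 1 of 3 tested neutrophil, 3 of 6 T and NK cell, 2 of 5 B cell and 0 of 6 dendritic cell markers were higher. With the WT HFD pair averaged the T and NK cell count was 1 of 6. On SD 1 of the 5 B cell markers was called higher, and limma called 0 of the 3 neutrophil, 6 T and NK cell and 6 dendritic cell markers, of which 0, 0 and 1 had an unadjusted p under 0.05. The dendritic cell markers summed to 488 to 610 normalized counts in WT HFD, 594 to 798 in KO HFD, 874 to 893 in WT SD and 540 to 849 in KO SD libraries. The neutrophil marker Ly6g was at 0 in both libraries of WT SD, WT HFD and KO HFD. Of the stromal lists, 3 of 8 endothelial and 4 of 7 fibroblast and progenitor markers were higher, while 1 of 6 tested mesothelial markers was higher and 1 lower. With the pair averaged, 1 endothelial marker was called higher and no mesothelial marker lower. On scaling to the same total 7 endothelial and 6 fibroblast and progenitor markers were higher.

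**Figure D2:**
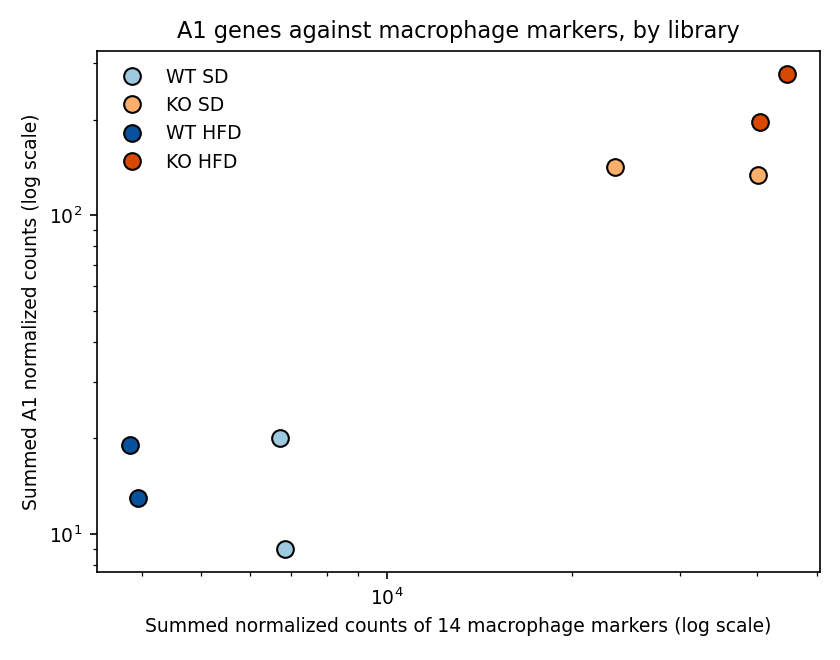
Summed A1 normalized counts (vertical, log scale) against the summed normalized counts of 14 macrophage markers (horizontal, log scale), 1 point per library. The 4 WT libraries lie at 9 to 20 A1 counts and 3826 to 6835 marker counts, and the 4 KO libraries at 134 to 277 and 23505 to 44667.

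The promoters of the A1 genes are shown because these genes moved together and because the motifs of a leukocyte factor and of the YAP/TAZ partner TEAD could be looked up in them. A window from 250 bases before to 50 bases after the RefSeq start (GRCm38.p6) was available for 7 of the 8 genes, all but Bik. All 3 A1 windows hold the letters GAGGAAGT, a form of the motif of PU.1, a factor of myeloid cells, at -104 in Bcl2a1a and Bcl2a1d and at -148 in Bcl2a1b. Of 32851 promoter windows, 3.2% hold it on either strand. The stretches below carry it in capitals and lie at chr9:88956790-88956849 (plus), chr9:89199099-89199158 (plus) and chr9:88731921-88731980 (minus).
Bcl2a1a: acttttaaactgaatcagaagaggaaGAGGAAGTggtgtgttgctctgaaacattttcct
Bcl2a1b: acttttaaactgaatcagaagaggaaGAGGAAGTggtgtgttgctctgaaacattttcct
Bcl2a1d: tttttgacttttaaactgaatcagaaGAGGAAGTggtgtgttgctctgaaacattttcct
The copies are nearly the same here too, so these are not independent matches. The same letters occur in the window of Bak1, at -22 on the opposite strand, and in 1 of the 2 windows of Bad. They also occur at -214 in the window of Bcl2a1c, which was not called between genotypes on HFD. The TEAD motif GGAATG, found in 14.7% of all windows on either strand, is not among the letters of any window of these 7 genes. It is also absent from both windows of Bcl2l11, although the study reported YAP at a TEAD motif in the promoter region of that gene. A match or its lack in these windows is a description of the letters alone.

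Bid, the BH3-only gene that links death receptors to mitochondria, was the only member called between the diets, and it was called in WT mice. It is encoded on the minus strand (ENSMUSG00000004446, chr6:120891930-120916853). Bid had 105 and 123 normalized counts in WT SD, 147 and 177 in KO SD, 292 and 296 in WT HFD and 151 and 160 in KO HFD libraries. The WT HFD libraries stood above all the others. In WT mice Bid was higher on HFD than on SD (2.58-fold between means, log2 fold change 1.36 ± 0.26 (SE), limma adjusted p = 0.00448). In KO mice the diets differed by -0.05 on the log2 scale (95% interval -0.61 to 0.50). On HFD, Bid was lower in KO than in WT mice (log2 fold change -0.92 ± 0.26 (SE), limma adjusted p = 0.0152). On SD the difference was 0.50 (95% interval -0.05 to 1.06, limma adjusted p = 0.347). The interaction of genotype and diet was called for Bid (-1.42 ± 0.36 (SE), limma adjusted p = 0.0209).

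All 3 Bid calls rest on the WT HFD libraries. With that pair averaged, the limma adjusted p was 0.0908 for genotype on HFD, 0.0598 for diet in WT and 0.0889 for the interaction. The genotype call was also lost without any 1 of the 4 HFD libraries (limma adjusted p from 0.0507 to 0.09) and on scaling to the same total (log2 fold change -0.53, limma adjusted p = 0.134), which moves the median of all genes on HFD to 0.47. The WT diet call was lost without the first WT SD library (limma adjusted p = 0.0607) or the second WT HFD library (0.0553). The call of the interaction was lost without the first WT SD, the second KO SD, either WT HFD or the second KO HFD library (limma adjusted p from 0.0504 to 0.0879), on scaling to the same total (-0.99, limma adjusted p = 0.0827), with no filter on low values (0.0501) and without the abundance trend (0.0853). On scaling to the same total the WT diet difference was 0.95 and called (limma adjusted p = 0.0213), with the median of all genes at -0.48.

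Bid shares 628 of its exon bases (17.7%) with Bcl2l13 on the opposite strand, a mitochondrial BCL2 relative with roles in mitophagy. Bcl2l13 had 1320 and 1623 normalized counts in WT SD, 1502 and 1642 in KO SD, 2694 and 2667 in WT HFD and 1499 and 1014 in KO HFD libraries, so WT HFD was highest for this neighbour as well. Bcl2l13 was lower in KO than in WT mice on HFD (log2 fold change -1.12, limma adjusted p = 0.000756) and higher on HFD than on SD in WT mice (0.87, limma adjusted p = 0.00913). With the WT HFD pair averaged the genotype call held (limma adjusted p = 0.0158), while the diet call was lost (0.0967). The diet call was also lost on scaling to the same total (limma adjusted p = 0.0619), without the abundance trend (0.0990) and without the first WT SD or either WT HFD library (0.0787 to 0.112). The authors did not count reads that overlapped several genes, so reads in the shared bases were either left out or, if the counting used strand, assigned by strand. Which of these applied is not given in the sources used here. Adipocyte markers moved as well: 11 of 12 were lower in KO than in WT mice on HFD, none was called on SD, and 2 were higher on HFD than on SD in WT mice. With the pair averaged these counts were 10, 0 and 0. Their summed level was 265345 to 292027 in WT SD, 211891 to 312315 in KO SD, 486681 to 494589 in WT HFD and 114471 to 229549 in KO HFD libraries. The part of the adipocyte share in the Bid result was not tested.

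The other BH3-only genes passed no test. Bad (ENSMUSG00000024959, chr19:6941861-6951898, plus strand) had 271 and 365 normalized counts in WT SD, 294 and 257 in KO SD, 345 and 328 in WT HFD and 284 and 181 in KO HFD libraries. On HFD both KO libraries were below both WT libraries, but the difference was not called (log2 fold change -0.57, 95% interval -1.13 to -0.01, limma adjusted p = 0.109). It turned into a call without the first KO HFD library (-0.89, limma adjusted p = 0.026) and was -0.24 without the second. On SD the groups of Bad overlapped (log2 fold change -0.19, 95% interval -0.75 to 0.37). Bad shares 524 exon bases (20.5%) with Gpr137 on the opposite strand, which had 234 and 274 in WT HFD and 160 and 136 in KO HFD libraries.

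Bik (ENSMUSG00000016758, chr15:83526862-83544635, plus strand), whose protein sits at the endoplasmic reticulum, had the lowest mean level per length over the 8 libraries, but was below Bcl2a1b in only 4 of them. It had 14 and 6 normalized counts in WT SD, 11 and 14 in KO SD, 6 and 3 in WT HFD and 8 and 24 in KO HFD libraries. The HFD groups did not overlap and differed 3.73-fold in reads (95% interval 1.78 to 8.76, counting error only), but the spread between libraries was wide (log2 fold change 1.5 ± 0.90 (SE), limma adjusted p = 0.219). At this depth a difference in Bik was not detectable beyond that spread.

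**Figure D3:**
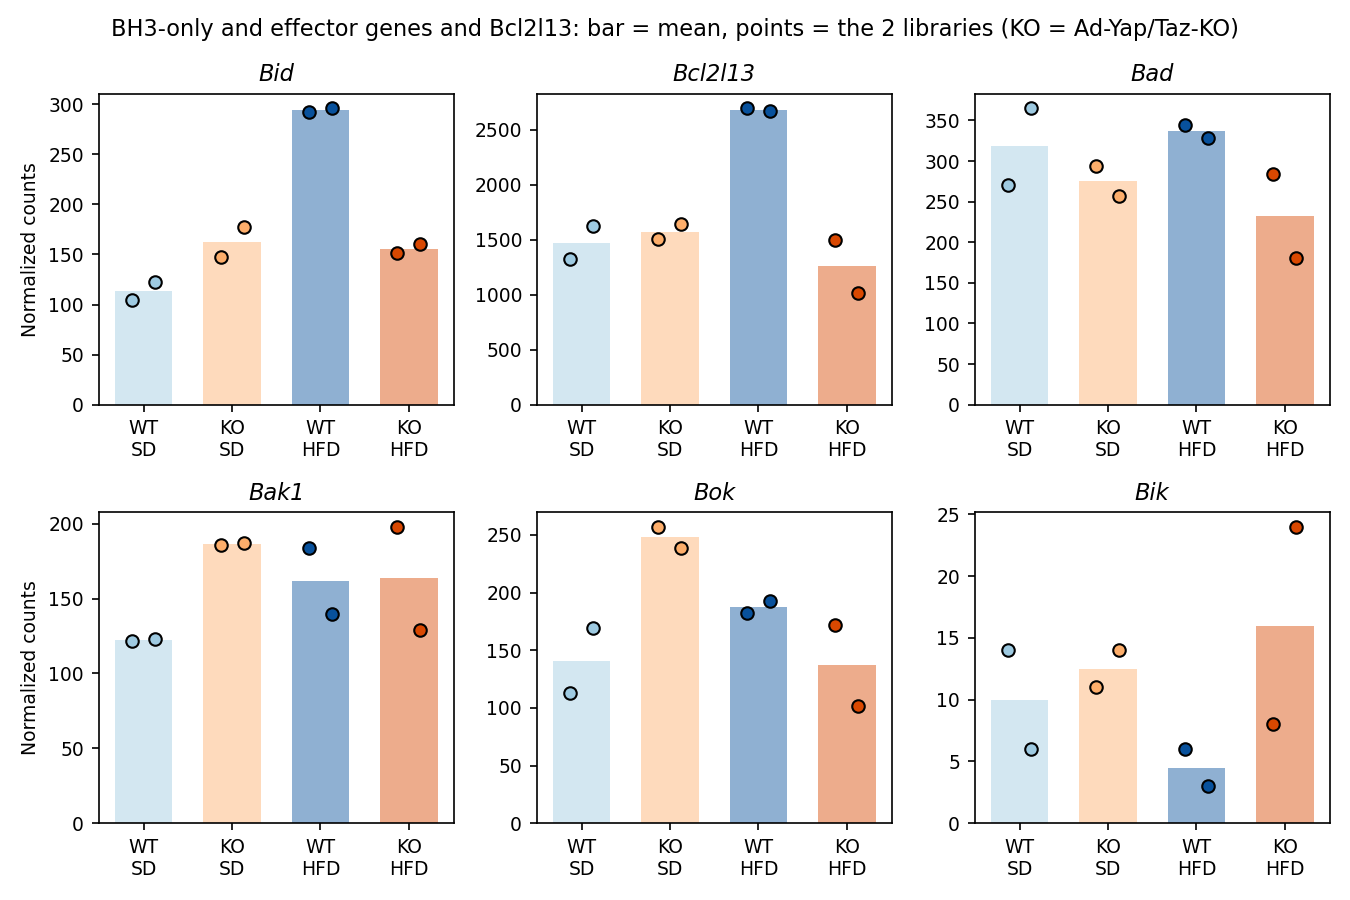
Normalized counts (vertical axes, linear from 0, a separate scale per gene) of Bid, its overlapping neighbour Bcl2l13, Bad, Bak1, Bok and Bik in the 4 groups, with bars for group means and points for libraries. Bid reaches 292 and 296 and Bcl2l13 2694 and 2667 in WT HFD libraries, above all other groups.

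Neither effector gene was called between genotypes or diets. Bak1 (ENSMUSG00000057789, chr17:27019810-27029009, minus strand) encodes BAK, which is held at the outer mitochondrial membrane and forms pores once activated. It had 122 and 123 normalized counts in WT SD, 186 and 187 in KO SD, 184 and 140 in WT HFD and 198 and 129 in KO HFD libraries. On SD the groups did not overlap (1.52-fold between means, log2 fold change 0.60, 95% interval -0.03 to 1.24, limma adjusted p = 0.322). On HFD they overlapped, and the difference was -0.01 (95% interval -0.64 to 0.63). This interval leaves room for a change of over 1.5-fold either way. Bak1 shares 437 exon bases (18.2%) with Ggnbp1 on the opposite strand, which had 102 and 72 in WT SD and 38 and 58 in KO SD libraries.

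Bok (ENSMUSG00000026278, chr1:93685660-93695764, plus strand) encodes an effector that is governed by degradation at the endoplasmic reticulum rather than by the anti-apoptotic members. It overlaps no other annotated exon and shares no 75-base stretch with another gene. Bok had 113 and 169 normalized counts in WT SD, 257 and 239 in KO SD, 182 and 193 in WT HFD and 172 and 102 in KO HFD libraries. The KO libraries were above WT on SD and below WT on HFD, without overlap on either diet. Neither difference was called (SD: log2 fold change 0.84, 95% interval 0.17 to 1.51, limma adjusted p = 0.178, and HFD: -0.50, 95% interval -1.17 to 0.18, limma adjusted p = 0.237). The interaction was -1.34 ± 0.44 (SE) with a limma adjusted p of 0.0534. It passed with the higher filter of a mean of 50 (limma adjusted p = 0.0442) and without the first KO HFD library (0.0167), and was at 0.151 with the WT HFD pair averaged.

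Counted over the 8 members, 3 were higher and 1 lower in KO than in WT mice on HFD, in a comparison that called 32.2% of all 18800 genes tested, 17.1% higher and 15.1% lower. Scaled to the same total, 24.6% of all genes were called higher and 7.27% lower, and Bid lost its call, so that 3 members were higher and none lower. With the WT HFD pair averaged, the calls were Bcl2a1b and Bcl2a1d, both higher, and 10.2% of all genes were called higher and 8.14% lower. On SD 2 were higher and none lower, where 4.71% of all genes were called, 3.21% higher and 1.5% lower. The SD calls were the A1 genes Bcl2a1a and Bcl2a1d alone. In WT mice 1 member was higher on HFD than on SD, against 18% of all genes called, 8.74% higher and 9.22% lower. Equal library totals turned these shares into 2.5% higher and 19% lower, and upper-quartile scaling into 5.79% and 11.7%, while Bid was called higher under either scaling. With the WT HFD pair averaged, Bid lost this call. In KO mice limma called 0 of 8 between the diets, against 1.07% of all genes (0.383% higher and 0.691% lower), and 1 member, Bok, had an unadjusted p under 0.05. The interaction was called for 1 of 8, in the negative direction, against 17.4% of all genes (8.69% positive and 8.73% negative). Scaled to the same total, 13.9% were positive and 3.29% negative, with no member called, and upper-quartile scaling gave 10.5% and 6.85%. The median log2 fold change of the members was 0.75 on HFD and 0.72 on SD, where the medians of all genes were 0.09 and -0.01. On HFD it was 0.45 without the second WT HFD library, 0.43 with a pseudocount of 8, 0.20 with quantile normalization and -0.50 over the 5 members with a mean of at least 50. The HFD median is the middle of a set mixed in direction. On HFD Bcl2a1a and Bcl2a1d had values of 2.78 and 3.52 and Bcl2a1b, for its KO mean, a lower bound of 4.19. Bid, Bad, Bak1 and Bok had values below 0 there. On SD only Bad was below 0 (-0.19), and the set was mixed in size. The A1 genes had values of 3.62, 2.99 and 2.85 on SD, and the highest of the other members was Bok with 0.84.

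**Figure D4:**
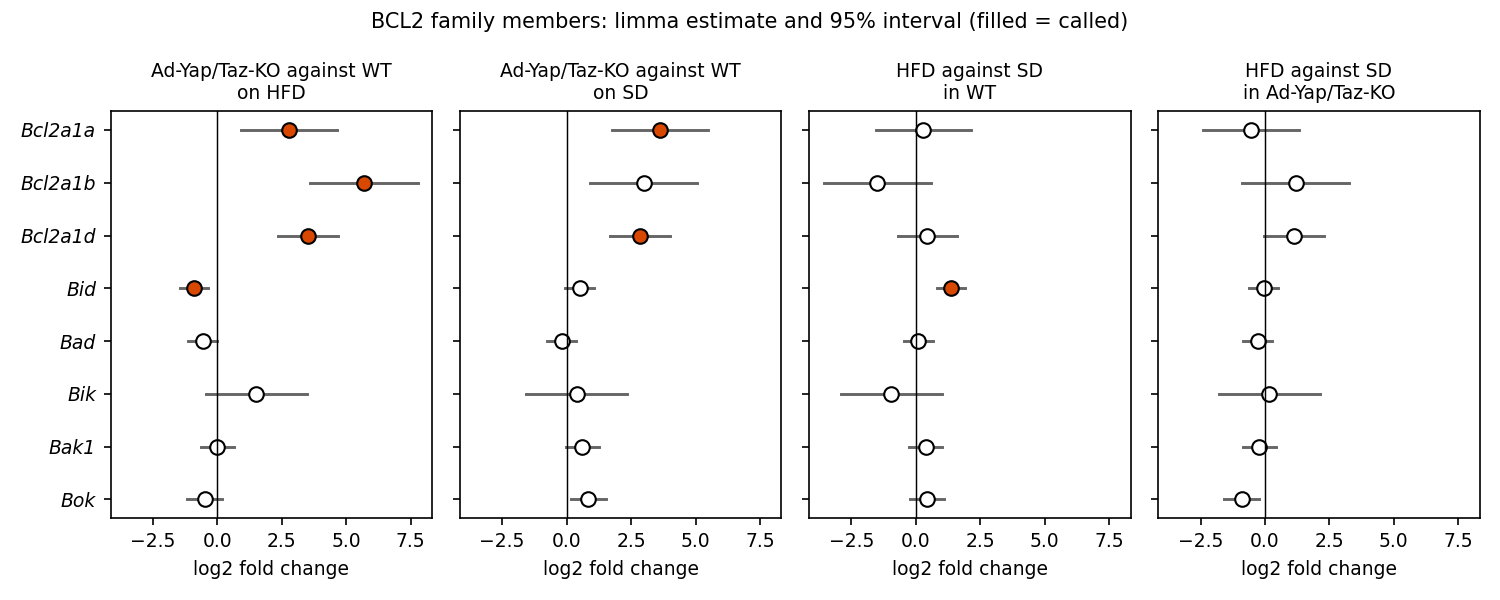
Log2 fold changes (horizontal axes, the same scale throughout) of the 8 members in 4 comparisons, with points for limma estimates, bars for 95% intervals and filled points for called differences (the estimate for Bcl2a1b on HFD depends on the pseudocount, as both WT libraries were at 0). The filled points are Bcl2a1a, Bcl2a1b, Bcl2a1d and Bid on HFD, Bcl2a1a and Bcl2a1d on SD and Bid between the diets in WT mice.

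Per kb of exon, a length that includes stretches shared with other genes, Bad had the highest mean level over the 8 libraries with 114 ± 22.6 normalized counts per kb (SD, n = 8). It was followed by Bok (96.9 ± 29.3), Bcl2a1d (68.4 ± 72.2), Bak1 (65.9 ± 13.7), Bid (51.1 ± 20.5), Bcl2a1a (27.8 ± 27.2), Bcl2a1b (24.0 ± 32.3) and Bik (6.76 ± 4.18). No step between neighbours in this order held in all 8 libraries. Bad exceeded Bok in 6 of 8, with a difference of 16.7 ± 29.8 per kb, and Bcl2a1d exceeded Bak1 in only 3 of 8. The place of Bcl2a1d in this order depended on the group: it averaged 9.85 per kb in WT SD and 13.9 in WT HFD, but 77.6 in KO SD and 172 in KO HFD mice. In KO HFD mice it stood above Bad (90.9 per kb), and in KO SD mice below it (107.7 per kb). The order also depended on the length used. Per 1000 stretches of 75 bases that occur in no other gene, a measure added after the data were seen, Bcl2a1d had the highest mean (230.5 ± 243.2, SD, n = 8), followed by Bad (123.1 ± 24.5), Bok (93.6), Bcl2a1b (83.5), Bak1 (71.5), Bcl2a1a (68.1), Bid (60.8) and Bik (6.82). This rank came from the KO groups, where Bcl2a1d averaged 261.7 on SD and 580.1 on HFD. In WT mice it averaged 33.2 on SD and 46.9 on HFD, below Bad (134.7 and 142.6).

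The wider family and its pathway give the setting. A panel of other BCL2 family genes had been shown by the study with its values in these libraries. How it was chosen is not stated, so it is not taken as independent evidence. Of its 9 genes, 4 (44.4%) were higher and 2 (22.2%) lower in KO than in WT mice on HFD. Of all genes, 17.1% were higher and 15.1% lower, or 24.6% and 7.27% on scaling to the same total. The higher ones were Bmf (log2 fold change 2.04), Bcl2l11, which encodes BIM (2.01), Pmaip1 (1.59) and Bbc3 (0.77), all BH3-only genes. Bcl2 (-1.41) and Bcl2l2 (-1.04), both anti-apoptotic, were lower. With the WT HFD pair averaged, 2 were higher and 1 lower, with the calls of Bbc3, Pmaip1 and Bcl2l2 lost, and on scaling to the same total 7 were higher and 2 lower. On SD limma called 0 of 9, with 3 at an unadjusted p under 0.05. Mcl1 and Bcl2l1, the other anti-apoptotic genes, were not called on HFD (0.43 and 0.32) but were called higher on scaling to the same total. Among 11 further relatives, 0 were higher and 2 lower on HFD, namely Bcl2l13 and the mitophagy gene Bnip3 (-1.60). The median over the 11 was 0.00478, against 0.09 for all genes.

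Downstream of the effectors, 2 of 16 genes of the mitochondrial pathway (12.5%) were higher and 3 (18.8%) lower on HFD, near the 17.1% and 15.1% of all genes. Apaf1, the scaffold of the apoptosome, was higher (log2 fold change 1.5, limma adjusted p = 0.000231), as was the inhibitor of apoptosis Birc3 (0.83). Birc2 (-1.04), Vdac1 (-0.69) and Casp9 (-0.64) were lower. Vdac1 (limma adjusted p = 0.0708) and Casp9 (0.142) lost their calls with the WT HFD pair averaged, and on scaling to the same total 4 genes were higher and 1 lower. Birc2 was also the 1 gene of this list called on SD (-0.72), a call lost in both of these alternatives.

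Of the genes that act on single members, some were called in each direction on HFD and others not at all. Upstream of BID, 2 of 10 genes (20%) were higher and 2 (20%) lower, again near the shares of all genes: Tnfrsf10b, a death receptor (log2 fold change 1.06), and Cflar, the caspase-8 inhibitor c-FLIP (0.75), against Fas (-1.35) and the BID receptor gene Mtch2 (-0.63). Casp8, which cuts BID, had a log2 fold change of 0.57 (limma adjusted p = 0.0156), under the fold limit of 0.59. Tnfrsf10b (limma adjusted p = 0.14) and Mtch2 (0.184) lost their calls with the WT HFD pair averaged, and on scaling to the same total 3 genes, Casp8 among them, were higher and 1 lower. Among regulators of BAD, 4 of 18 (22.2%) were higher and 6 (33.3%) lower. The shares of all genes were 17.1% higher and 15.1% lower, or 24.6% and 7.27% on scaling to the same total. Rps6ka1 (2.06) and Pim1 (2.04), kinases that phosphorylate BAD, were higher, as were Sfn (1.44) and Akt1 (0.75). Ywhaq (-1.35), Akt2 (-1.26), Ywhag (-1.19), Prkaca (-0.98), Ywhab (-0.96) and Ppp3r1 (-0.77) were lower, of which Ywhaq, Ywhag and Ywhab, like Sfn, encode 14-3-3 proteins, a family that binds phosphorylated BAD. With the pair averaged, Sfn (limma adjusted p = 0.11) and Ywhab (0.0732) lost their calls, and on scaling to the same total 7 were higher and 4 lower. Of 5 partners of BOK 1 was higher, Itpr3 (1.94), which encodes a calcium channel of the endoplasmic reticulum. On SD limma called 0 genes in these last 3 lists, with 1, 2 and 1 at an unadjusted p under 0.05.

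Of 8 NF-kappaB targets, 6 were higher on HFD in KO mice: Cd83 (log2 fold change 4.24), Traf1 (2.70), Icam1 (2.01), Birc3, Nfkb2 (0.79) and Tnfaip3 (0.62). In the same comparison 17.1% of all genes, 13 of 14 macrophage and 4 of 4 pan-leukocyte markers were higher, and the part of these cells in the count was not tested. The count was 5 with the WT HFD pair averaged, without Tnfaip3, and on scaling to the same total all 8 were higher. On SD 1 was higher, Cd83 (2.36). In WT mice 6 of 8 were lower on HFD than on SD, a comparison that called 9.22% of all genes lower, but 1 with the WT HFD pair averaged. The leukocyte markers given above were also lower there (12 of 14 macrophage and 4 of 4 pan-leukocyte), and their part was not tested there either. The feedback inhibitor gene Nfkbia had a log2 fold change of 0.55 on HFD, under the fold limit. The list's median was 0.81 on HFD and -0.09 on SD, against 0.09 and -0.01 for all genes. The A1 genes had log2 fold changes of 2.85 to 3.62 on SD, where Bcl2a1b (2.99, limma adjusted p = 0.116) was not called. How the A1 genes relate to this list was not tested.

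The genes most alike in pattern were sought among the 12093 genes whose mean was 50 or more, by Pearson correlation of log2 values over the 8 libraries, which share 4 group means. Bcl2a1d was closest to Itgav (r = 0.999), Gpr137b (0.993) and Iqgap1 (0.993), Bcl2a1b to Celf3 (0.993), Fem1b (0.990) and Arhgap30 (0.988), and Bcl2a1a to Dlgap5 (0.984), Aftph (0.965) and Mmp13 (0.959). Bid was closest to Pdcd6ip (0.991), Fam175b (0.990) and Itch (0.985), and Bad to Ccnj (0.979), Mettl26 (0.959) and Spopl (0.955). Bak1 was closest to Snx1 (0.967), Uqcrh (0.945) and Gtf3c2 (0.942), Bok to Gm8850 (0.961), Trappc6a (0.952) and Tmed3 (0.944), and Bik to Eif2s2 (0.989), Gm16340 (0.974) and Gm36527 (0.969). Each is the best of many candidates over few libraries, so these values only describe the profiles.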

How the data were processed

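RNA-seq libraries of isolated epididymal white adipocytes were assigned to groups from the sample labels. Per the study's methods, the authors depleted ribosomal RNA, made libraries with a stranded kit, trimmed the single-end reads (Reaper), mapped them to GRCm38 (STAR 2.5.2b) and counted those on exons (featureCounts 1.5.1). Reads with more than 1 gene or position were not counted. Whether the counting used strand is not given in the sources used here. The deposited values are a score: read counts that the authors divided by the size factor of the library and rounded, called normalized counts here. As these are not raw counts, no count model was run.

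Genes with a mean of at least 5 (18800 of 30387) were tested with limma 3.58.1 in R 4.3.3, on log2(value + 1), which understates changes of low genes, with an abundance trend, 4 group means, 4 residual and 8.59 prior degrees of freedom. A gene was called where the adjusted p (Benjamini-Hochberg over all genes tested) did not exceed 0.05 and the log2 fold change reached 0.59 in size, the limits of the study. For 2 libraries against 2, the smallest p of an exact two-sided permutation test is 0.333, so p-values come from this model. The fit and the depth estimate were tested on simulated data.

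The value of 1 read was estimated from the spacing of values, and gave the floor of 3 counts and the intervals (95%). Reads carry no molecular identifiers. Levels per length use exon bases of GENCODE vM21, which held 30259 of the 30387 identifiers. Promoters are from RefSeq (GRCm38.p6). Named genes are the 8 members, Yap1 and Wwtr1, genes of the pathway and marker lists, genes that share exon bases with a member, and the 3 genes most alike to each member. Of 2 entries named Itgam, the one with the higher mean was used among the macrophage markers. A gene of the list of BAD regulators is not reported here and was left out of its counts. The members and lists were chosen with earlier results of these data known. Python 3.11.15 with pandas 2.3.3 made the tables and matplotlib 3.10.9 the figures.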

Additional observations from a re-analysis of the deposited data

Results flagged for a closer look

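The effect of genotype on Bid differed between the diets by a test of the difference itself, the interaction of genotype and diet in limma: -1.42 on the log2 scale (95% interval -2.20 to -0.63, adjusted p = 0.0209). On SD the Ad-Yap/Taz-KO libraries held 147 and 177 normalized counts of Bid and the WT libraries 105 and 123. On HFD they held 151 and 160 against 292 and 296. The call of the Bid interaction was lost with no filter on low values, on scaling to the same total and without the abundance trend. It was also lost in several fits that left out 1 library, as given above. Once the WT HFD pair was averaged the interaction missed the threshold (limma adjusted p = 0.0889). The overlapping gene Bcl2l13 had an interaction of -1.22 (limma adjusted p = 0.0124), which with the pair averaged missed the threshold as well (0.0712). That call was also lost with no filter on low values (limma adjusted p = 0.0599), without the abundance trend (0.115) and without the first WT SD or either WT HFD library (0.0605 to 0.0758). The cause was not tested.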

How the results depend on the processing

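The genes called numbered 6053 for genotype on HFD, 886 for genotype on SD, 3377 for diet in WT, 202 for diet in Ad-Yap/Taz-KO (KO) and 3274 for the interaction. These counts moved by over 1.5 times, in that order of comparisons, as follows. With the WT HFD pair averaged they were 3445 on HFD, 539 for diet in WT, 28 for diet in KO and 517 for the interaction. At an adjusted p of 0.01 they were 3857, 441, 1223, 25 and 732. With no filter on low values they were 438 on SD, 1701 in WT, 3 in KO and 721 for the interaction. Without the trend they were 226, 498, 1 and 9. In a fit of the groups compared alone they were 461 on SD and 0 in KO, where 2059 genes had an unadjusted limma p under 0.05. Quantile normalization gave 2186 in WT and 304 in KO. Pseudocounts of 0.1 and 8 gave 112 and 330 in KO. Leaving out 1 library gave 3629 to 5837, 381 to 778, 628 to 1400, 14 to 961 and 530 to 4249.

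Of the members, 4, 2, 1, 0 and 1 were called. On HFD this fell to 3 with no filter on low values or with quantile normalization (without Bcl2a1a) and on scaling to the same total (without Bid), and to 2 with the pair averaged, at 0.01 or with a mean of at least 50, a filter that leaves out 3 members, and leaving out 1 library gave 2 to 3. On SD it was 1 at a pseudocount of 0.1, with no filter, with a mean of at least 50, without the trend or at 0.01, 0 in a fit of the SD groups alone, and 0 to 2 with 1 library left out. In WT it was 0 with the pair averaged and 0 to 1 with 1 library left out. The interaction gave 0 with no filter, on scaling to the same total, without the trend, with the pair averaged or at 0.01, 2 with a mean of at least 50, and 0 to 2 with 1 library left out. The summed A1 level in KO SD was 147 on scaling to the same total against 138, more than its spread between libraries. Per 1000 stretches that occur in no other gene, chosen after seeing the data, the mean levels of Bcl2a1a, Bcl2a1b and Bcl2a1d were 68.1, 83.5 and 230.5, against 27.8, 24.0 and 68.4 per kb of exon.

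Differences that were not called changed sign. On scaling to the same total Bak1 went to 0.38 on HFD and -0.0237 in WT, Bcl2a1a to -0.015 and Bad to -0.32 in WT, and the interaction of Bad to 0.0542. Upper-quartile scaling gave Bak1 0.0806 on HFD and Bad -0.0333 in WT. Quantile normalization gave Bik -0.0003 in KO and the interaction of Bcl2a1d -0.0109. With 1 library left out the ranges were -0.31 to 0.30 for Bak1 on HFD, -0.41 to 0.0204 for Bad and -0.16 to 0.94 for Bik on SD, -0.71 to 1.29 for Bcl2a1a and -0.12 to 0.31 for Bad in WT, -0.19 to 0.08 for Bid, -0.60 to 0.0469 for Bad, -0.53 to 0.0859 for Bak1 and -0.58 to 0.90 for Bik in KO, and -1.84 to 0.16 for the interaction of Bcl2a1a. The cause of these shifts was not tested.

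With the replicate number as a block, the same number of members was called in each comparison, and the genes called were 5706, 720, 2935, 112 and 2568. The numbers share no animal or stated batch: deviations of same-numbered libraries correlated at -0.30 to 0.11 over 12093 genes, so the block is not a pairing. With 2 libraries a group, values near the floor of 3 counts, as for A1 in WT and for Bik, limit precision.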
